A study of Rattus norvegicus with 12 samples.

Results

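The genes described here are 8 genes of programmed cell death, the apoptotic initiator genes Casp8, Casp9 and Apaf1, the mitochondrial protease and IAP antagonist genes Htra2 and Diablo, and the necroptosis genes Ripk1, Ripk3 and Mlkl. They were chosen by symbol from the 34599 genes of the count table, each symbol matched 1 gene, and all 8 were among the 15101 genes with enough reads to test. RNA-seq had been done on left ventricular (LV) tissue of male SD rats, taken 1 day after surgery, with 4 rats in each of 3 groups. In infarcted rats it came from the infarct region, and Sham rats had no infarct. Sham rats had a thoracotomy without ligation of the left anterior descending (LAD) coronary artery, and MI (myocardial infarction) rats had the ligation and no treatment. The iCarP+/Light+ rats had the ligation, an injection of Chlorella (a green alga that makes oxygen in light) into the infarcted LV, a light-guiding patch glued to the epicardium with the adhesive CCS@gel, and illumination. Alga, patch, adhesive and light therefore came together in 1 group and cannot be told apart. None of the 12 libraries came from rats with the patch but no light (iCarP+/Light-). The study's methods give 6 weeks as the age of the male SD rats bought, in the section on illumination tests and not in that on infarction.

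Apoptosis is a cell death run by caspases, proteases that are made as inactive precursors and are activated in protein complexes. In the death receptor route, receptors of the TNF family gather FADD and caspase-8, and in the mitochondrial route cytochrome c and APAF1 form the apoptosome, which activates caspase-9. Proteins leaving the mitochondria, among them Diablo (also called Smac) and HTRA2 (also called Omi), relieve the block that inhibitor of apoptosis proteins (IAPs) such as XIAP place on caspases. Necroptosis is a lytic death that needs no caspase: RIPK1 and RIPK3 form the necrosome, RIPK3 phosphorylates MLKL, and MLKL breaks the plasma membrane. Caspase-8 cleaves RIPK1 and RIPK3 and so holds necroptosis back. Both forms of death are known from the ischemic heart. RNA levels do not show whether these proteins were cleaved or phosphorylated.

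The promoter sequences of the necrosome genes are shown because these 3 genes act in sequence and yet differed in their RNA changes. They are the 250 bases before the transcription start from RefSeq, 5′ to 3′ on the strand of the gene, in build GRCr8. Capitals mark an AP-1 motif (TGACTCA on either strand) in Ripk3 and GC boxes (GGGCGG on either strand) in Ripk1, and none of the motifs searched was found in Mlkl.
Ripk3, chr15:33262026-33262275, minus strand: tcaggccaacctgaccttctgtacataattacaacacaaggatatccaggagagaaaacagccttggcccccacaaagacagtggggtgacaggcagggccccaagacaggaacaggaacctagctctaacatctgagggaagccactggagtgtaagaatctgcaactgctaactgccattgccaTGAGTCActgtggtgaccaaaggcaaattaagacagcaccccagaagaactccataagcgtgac
Ripk1, chr17:31077168-31077417, minus strand: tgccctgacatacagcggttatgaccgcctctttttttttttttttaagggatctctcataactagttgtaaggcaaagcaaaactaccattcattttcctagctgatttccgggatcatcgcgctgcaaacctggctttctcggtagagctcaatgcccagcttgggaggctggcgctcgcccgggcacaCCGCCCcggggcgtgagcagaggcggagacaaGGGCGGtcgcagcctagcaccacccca
Mlkl, chr19:56213859-56214108, minus strand: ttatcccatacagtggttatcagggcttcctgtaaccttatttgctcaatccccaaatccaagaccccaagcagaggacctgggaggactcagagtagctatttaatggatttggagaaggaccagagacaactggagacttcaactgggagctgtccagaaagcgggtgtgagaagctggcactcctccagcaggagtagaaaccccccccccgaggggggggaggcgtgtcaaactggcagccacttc
RefSeq promoters were matched for 6 of the 8 genes, Casp9, Apaf1, Diablo, Ripk1, Ripk3 and Mlkl. The search covered 300 bases, from 250 before to 50 after the start. An AP-1 motif was found in Ripk3 and Diablo and in 4.63% of all 33469 promoters. GC boxes were found in Casp9, Apaf1, Diablo and Ripk1 and in 33.1% of all promoters. The CRE (TGACGTCA), the TATA box (TATAAA) and the kappaB motif were found in none of the 6 and in 1.83%, 14.2% and 4.18% of all promoters. A match is a description of letters and no test of binding.

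In the count table, whose coordinates are on build rn6 per the submitters' processing notes, all 8 genes were listed as protein coding. Casp8 (ENSRNOG00000012331) was placed on chromosome 9 from 65614142 to 65662106, Casp9 (ENSRNOG00000012944) on chromosome 5 from 160355833 to 160373778, and Diablo (ENSRNOG00000029197) on chromosome 12 from 38490230 to 38503330, all on the plus strand. Apaf1 (ENSRNOG00000008022) was placed on chromosome 7 from 31699885 to 31784192, Htra2 (ENSRNOG00000022448) on chromosome 4 from 113883670 to 113886994, and Ripk1 (ENSRNOG00000017787) on chromosome 17 from 31537591 to 31569904, all on the minus strand. Ripk3 (ENSRNOG00000020465) was placed on chromosome 15 from 34470796 to 34479741 and Mlkl (ENSRNOG00000042353) on chromosome 19 from 43506976 to 43528851, both on the minus strand. The genes that overlapped them were small RNA genes, 2 within Apaf1 and 1 within Diablo, with at most 2 reads in any rat.

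Between 14064414 and 17136958 reads were counted per rat, with the lowest total at 16806502 for Sham, 14898054 for MI and 14064414 for iCarP+/Light+. Sham rats had 22.8% to 28.9% of these reads on mitochondrial genes, MI rats 8.52% to 11.5% and iCarP+/Light+ rats 7.14% to 14.2%. Levels are given as CPM, the usual unit of reads relative to library size, here after TMM scaling, which is meant for such differences in composition. Whether it suits a comparison in which 63.8% of tested genes were called, as in MI against Sham, was not tested. Cardiomyocyte markers were detected in every rat, with a summed level of 56820 to 61884 CPM for Sham, 3813 to 7894 for MI and 3280 to 9255 for iCarP+/Light+, and 11 of 11 were lower in MI than in Sham. The summed level of 19 leukocyte markers was 613 to 910 CPM for Sham, 6369 to 10414 for MI and 9891 to 18462 for iCarP+/Light+, and none of the 19 was at 0 in every rat. Endothelial (7 of 8), fibroblast (7 of 8) and red blood cell (5 of 8) markers were called lower in MI than in Sham, and 4 of 8 red blood cell markers and 1 of 8 fibroblast markers higher in iCarP+/Light+ than in MI. In whole tissue, fewer cells of a type and less RNA per cell cannot be told apart. The part of these changes in cell markers in the results on the 8 genes was not tested. The rats are separate animals, so the spread is between animals.

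Comparing MI with Sham addressed which of the 8 genes differed in the infarct region 1 day after ligation. Ripk3, the necrosome kinase, rose most in fold, to 9.10 times its Sham level. Ripk1, Apaf1, Htra2 and Casp9 rose by less, between 1.30 and 1.77 times, and Diablo fell by 0.35 on the log2 scale. Casp8 and Mlkl did not pass the test. In all, 6 of the 8 genes passed (edgeR adjusted p below 0.05 over all genes tested), 5 higher and 1 lower, against 63.8% of all genes tested, 30.2% higher and 33.6% lower. The 4 MI rats lay above the 4 Sham rats without overlap for 5 of the 8 genes and below them for 0, against 59% of all genes without overlap, 27.6% above and 31.4% below. The median log2 fold change was 0.40 over the 8 genes and -0.060 over all genes tested.

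Comparing iCarP+/Light+ with MI addressed which genes differed between infarcts with and without the treatment. Casp8 rose to 1.87 times its MI level and passed the test, and the other 7 genes did not pass it. Thus 1 of the 8 genes was called, against 13.6% of all genes tested, 11.6% higher and 2.01% lower. The iCarP+/Light+ rats lay above the MI rats without overlap for Casp8, below them for Htra2, and overlapped them for the other 6 genes. Of all genes tested 16.4% did not overlap, 12.1% above and 4.37% below. The median log2 fold change was 0.0056 over the 8 genes and 0.013 over all genes tested.

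Against Sham, iCarP+/Light+ rats had 6 of the 8 genes called, 5 higher (Casp8, Casp9, Apaf1, Ripk1 and Ripk3) and 1 lower (Diablo), where 66.5% of all genes tested were called, 33.5% higher and 33% lower. Htra2 and Mlkl did not pass. The groups did not overlap for 6 genes, 5 above and 1 below, against 63.5% of all genes, 31.9% above and 31.6% below. The 3 comparisons share rats, so their values are set side by side below and are not independent of each other.

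**Figure D1:**
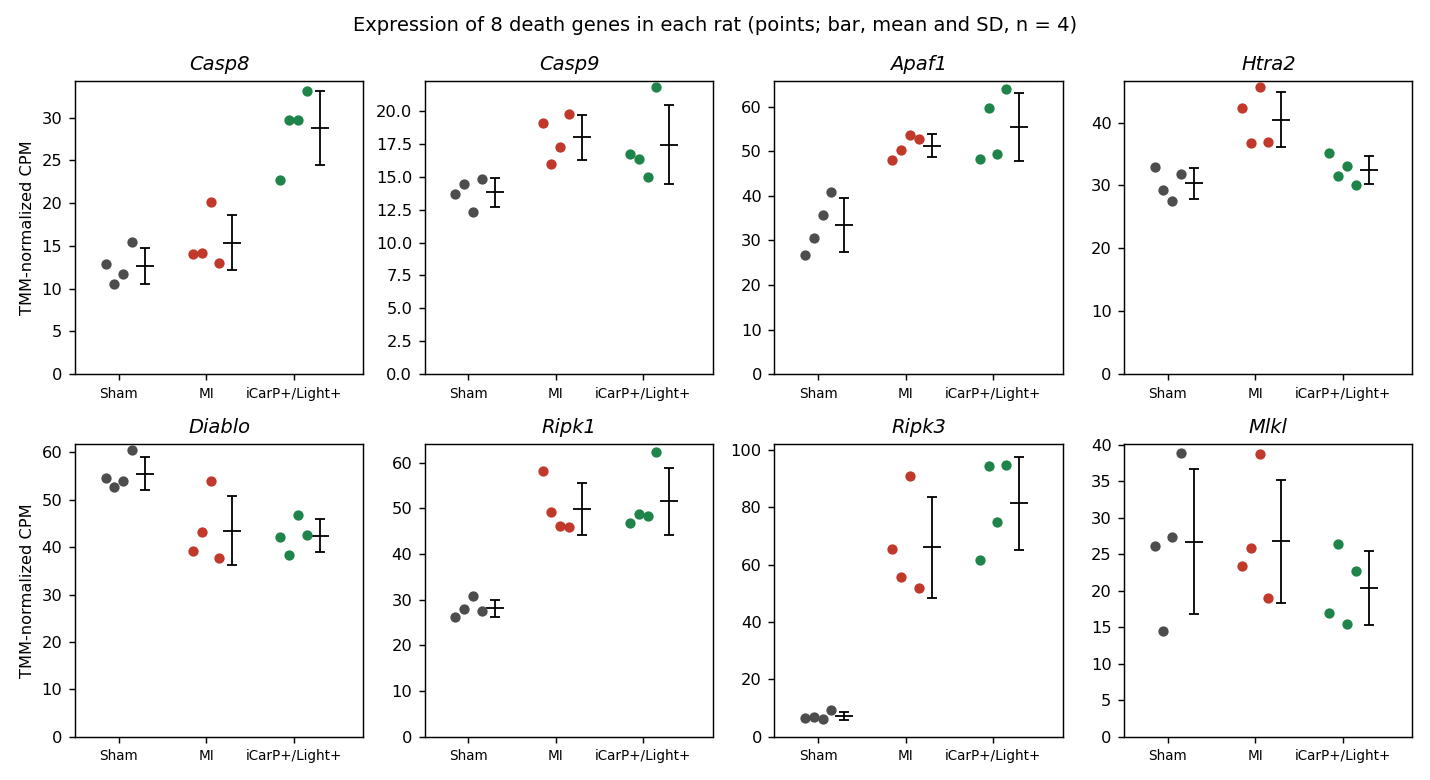
TMM-scaled CPM (vertical axes, from 0) of the 8 genes in each of the 12 rats, 1 point per rat in the order of the rat numbers, with the mean and SD of the 4 rats of each group beside them. Ripk3 lay between 6.22 and 9.36 CPM in Sham and between 51.9 and 94.7 CPM in the other groups, Casp8 was highest in iCarP+/Light+, and Mlkl overlapped between all groups.

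Casp8 encodes caspase-8, the initiator protease of the death receptor route. In Sham rats 1, 2, 3 and 5 its level was 12.9, 10.5, 11.7 and 15.5 CPM. In MI rats 1, 3, 4 and 5 it was 14.1, 14.2, 20.1 and 13.0 CPM. In iCarP+/Light+ rats 1, 2, 4 and 5 it was 22.7, 29.7, 29.7 and 33.1 CPM. Every iCarP+/Light+ rat lay above every other rat, while Sham and MI overlapped and MI rat 4 was the highest of the untreated rats. The group means were 12.6 ± 2.12, 15.4 ± 3.23 and 28.8 ± 4.34 CPM (SD, n = 4) in Sham, MI and iCarP+/Light+. Between iCarP+/Light+ and MI the log2 fold change was 0.91 (SE 0.17, 95% interval 0.53 to 1.28, edgeR adjusted p = 0.00328), and the exact two-sided permutation test gave p = 0.0286, the smallest that 4 rats against 4 allow. Against Sham it was 1.19 in iCarP+/Light+ (SE 0.18, edgeR adjusted p = 5.35e-05) and 0.28 in MI (SE 0.17, interval -0.096 to 0.66, edgeR adjusted p = 0.176). Leaving out 1 rat gave 0.13 to 0.39 for MI against Sham, not called in any of these fits. With libraries scaled by total counts alone, which moved the median of all genes by 0.52 in MI against Sham, the latter was 0.86, or 0.33 relative to that median, and passed (edgeR adjusted p = 2.83e-04).

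Casp9 encodes caspase-9, the initiator protease of the apoptosome. It was 13.7, 14.5, 12.3 and 14.8 CPM in Sham rats 1, 2, 3 and 5. Levels were 19.1, 16.0, 17.2 and 19.7 CPM in MI rats 1, 3, 4 and 5. In iCarP+/Light+ rats 1, 2, 4 and 5 the levels were 16.7, 16.3, 15.0 and 21.8 CPM. All Sham rats were below all infarcted rats, and the infarcted groups overlapped. The log2 fold change was 0.38 in MI against Sham (SE 0.14, edgeR adjusted p = 0.0277) and 0.34 in iCarP+/Light+ against Sham (SE 0.14, edgeR adjusted p = 0.0465). These calls were close to the threshold. The MI call was lost without MI rat 1 or 5 or without Sham rat 1 or 3, with values of 0.33 to 0.38 and adjusted p from 0.0555 to 0.0739, and the iCarP+/Light+ call was lost in 8 of the 12 fits that leave out 1 rat and under 5 of the 10 other settings, with adjusted p under these settings from 0.0531 to 0.0682. Between iCarP+/Light+ and MI the difference was -0.045 (interval -0.34 to 0.25, edgeR adjusted p = 0.877).

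Apaf1, whose product is the scaffold of the apoptosome, was 26.8, 30.6, 35.6 and 40.8 CPM in Sham rats 1, 2, 3 and 5. The 4 MI rats had 48.1, 50.2, 53.7 and 52.8 CPM. The 4 iCarP+/Light+ rats had 48.3, 59.6, 49.5 and 63.9 CPM. Sham rats spread widely, yet the highest of them was below the lowest infarcted rat. The log2 fold change against Sham was 0.61 in MI (SE 0.14, edgeR adjusted p = 0.0015) and 0.73 in iCarP+/Light+ (SE 0.14, edgeR adjusted p = 3.95e-04). Between the infarcted groups it was 0.11 (interval -0.18 to 0.40, edgeR adjusted p = 0.666), which turned to -0.16 with total counts alone and to -0.043 without iCarP+/Light+ rat 5, neither of them called.

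Htra2 encodes a serine protease of the mitochondrial intermembrane space that binds IAPs once it is released. In Sham rats 1, 2, 3 and 5 it was 33.0, 29.2, 27.5 and 31.8 CPM. In the MI rats it was 42.3, 36.7, 45.7 and 36.9 CPM, and in the iCarP+/Light+ rats 35.1, 31.5, 33.1 and 30.1 CPM. The MI rats were above every rat of the other groups, and Sham and iCarP+/Light+ overlapped. The rise in MI over Sham passed the test (log2 fold change 0.41, SE 0.10, edgeR adjusted p = 0.00382). The difference of iCarP+/Light+ from MI was -0.32 (SE 0.10, interval -0.54 to -0.090), with an exact permutation p of 0.0286, and it missed the threshold over all genes (edgeR adjusted p = 0.0656). It passed under 5 of the 10 other settings, with edgeR adjusted p = 0.0349 under DESeq2's size factors, and under none of the 12 fits that leave out 1 rat. Against Sham, iCarP+/Light+ differed by 0.097 (interval -0.13 to 0.32, edgeR adjusted p = 0.436). With total counts alone this was 0.41 (0.082 after subtracting the median shift) and was called without overlap (edgeR adjusted p = 0.00523).

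Diablo encodes the IAP antagonist Smac. Its levels were 54.5, 52.8, 54.0 and 60.6 CPM in the Sham rats and 39.2, 43.2, 53.9 and 37.7 CPM in the MI rats. In the iCarP+/Light+ rats they were 42.1, 38.3, 46.9 and 42.5 CPM. MI rat 4 lay within the Sham range and the other 7 infarcted rats lay below it. The log2 fold change in MI against Sham was -0.35 (SE 0.12, edgeR adjusted p = 0.0206), with an exact permutation p of 0.0571. That call was lost under 5 of the 10 other settings and without MI rat 1, MI rat 5, Sham rat 5 or iCarP+/Light+ rat 5, and total counts alone turned the value to 0.22, which is -0.30 relative to the median of all genes. In iCarP+/Light+ against Sham it was -0.39 (SE 0.12, edgeR adjusted p = 0.0120), without overlap. With total counts alone that value was -0.070 (-0.40 after subtracting the median shift of all genes), the groups overlapped and the call was lost (edgeR adjusted p = 0.602). Between the infarcted groups it was -0.035 (interval -0.29 to 0.22, edgeR adjusted p = 0.891).

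Ripk1 encodes the kinase that links TNF receptor signaling to survival, apoptosis or necroptosis. It was 26.2, 28.0, 30.7 and 27.5 CPM in the Sham rats. The MI rats had 58.1, 49.2, 46.2 and 45.9 CPM, and the iCarP+/Light+ rats 46.8, 48.7, 48.2 and 62.3 CPM. The infarcted rats were all above the Sham rats, and 1 rat in each infarcted group stood above the other 3. Ripk1 rose by a log2 fold change of 0.83 in MI (SE 0.12, edgeR adjusted p = 4.79e-05) and 0.87 in iCarP+/Light+ (SE 0.12, edgeR adjusted p = 2.73e-05), both against Sham. The difference between the infarcted groups was 0.046 (interval -0.21 to 0.30, edgeR adjusted p = 0.848), and its sign turned under 4 of the 10 other settings, none of which called it.

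Ripk3 encodes the kinase that activates MLKL. In Sham rats 1, 2, 3 and 5 it was 6.58, 6.83, 6.22 and 9.36 CPM, from 82 to 127 reads. In MI rats 1, 3, 4 and 5 it was 65.4, 55.8, 91.0 and 51.9 CPM. In iCarP+/Light+ rats 1, 2, 4 and 5 it was 61.5, 94.5, 74.9 and 94.7 CPM. The lowest infarcted rat was several times above the highest Sham rat, and the infarcted groups overlapped. The log2 fold change against Sham was 3.19 in MI (SE 0.22, interval 2.71 to 3.66, edgeR adjusted p = 1.42e-07) and 3.49 in iCarP+/Light+ (SE 0.22, edgeR adjusted p = 5.02e-08), the latter 11.2 times the Sham level. Over the 10 other settings the MI value ranged from 3.16 to 3.76 and was called in all of them. The 2 infarcted groups differed by 0.30 (SE 0.19, interval -0.12 to 0.72, edgeR adjusted p = 0.375). Leukocyte markers moved in the same direction between Sham and MI, where 17 of 19 were called higher, with a median log2 fold change of 3.22.

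Mlkl encodes the pseudokinase that carries out necroptosis. Its levels were 26.2, 14.5, 27.3 and 38.9 CPM in the Sham rats. The MI rats had 23.4, 25.8, 38.7 and 19.0 CPM. The iCarP+/Light+ rats had 16.9, 26.3, 15.4 and 22.7 CPM. All 3 groups overlapped, and Mlkl varied most among the rats of a group, with a coefficient of variation of 37.3% for Sham, 31.6% for MI and 25.0% for iCarP+/Light+. The log2 fold change in MI against Sham was 0.00095 (SE 0.28, interval -0.61 to 0.62, edgeR adjusted p = 0.998), an interval that leaves room for a moderate change either way. In iCarP+/Light+ it was -0.39 against MI (interval -1.01 to 0.22, edgeR adjusted p = 0.440) and -0.39 against Sham (interval -1.01 to 0.23, edgeR adjusted p = 0.245).

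**Figure D2:**
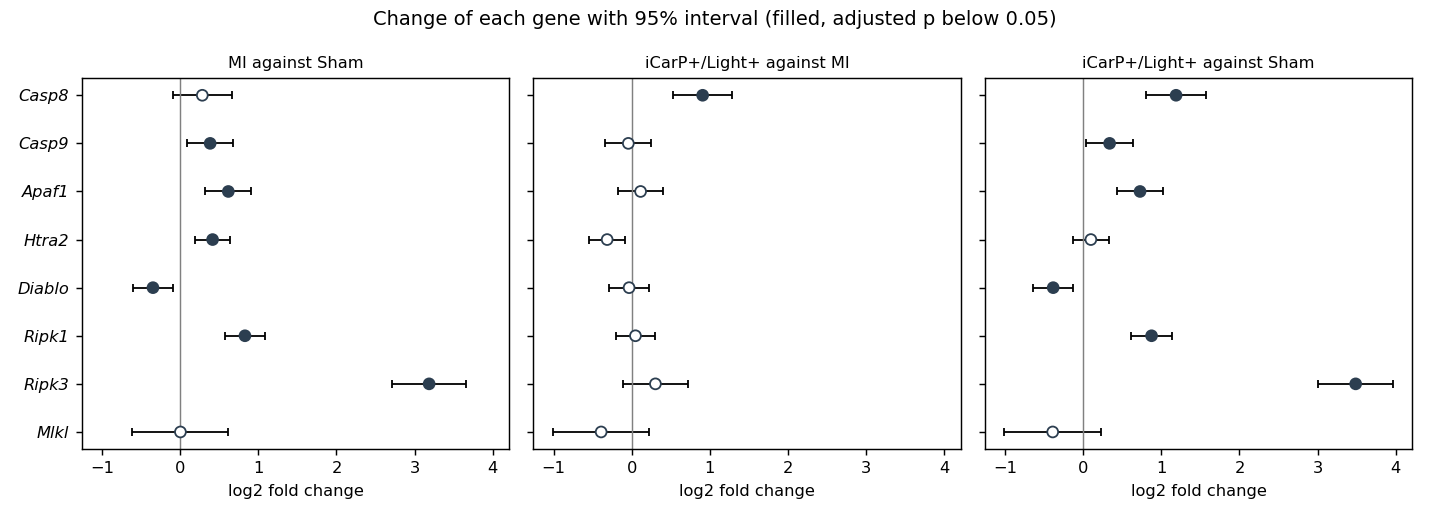
Log2 fold change (horizontal axes) of the 8 genes in the 3 comparisons, with 95% intervals from edgeR, where filled points passed an adjusted p of 0.05 over all genes tested. Ripk3 had the largest change of the 8 against Sham, and Casp8 was the only one of them called between iCarP+/Light+ and MI.

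Levels of different genes were compared as CPM per kilobase of gene length. In Sham, Diablo was highest at 42.9 CPM per kb on average, followed by Htra2 at 17.4, each without overlap with the next gene. Mlkl (8.45), Casp8 (6.23), Ripk1 (6.21), Apaf1 (5.48), Casp9 (4.46) and Ripk3 (3.62) followed, each overlapping its neighbours in this order. In MI, Diablo (33.6), Ripk3 (33.0) and Htra2 (23.1) were the highest and overlapped in turn, and Htra2 did not overlap the next gene, so Ripk3 had moved from the last place to the top ranks. Below them came Ripk1 (11.0), Mlkl (8.46), Apaf1 (8.39) and Casp8 (7.58), overlapping in turn, and then Casp9 (5.81). In iCarP+/Light+, Ripk3 (40.7) and Diablo (32.8) overlapped at the top, Htra2 (18.6) came next, and Casp8 (14.2) was in the fourth place, overlapping Ripk1 (11.4). Apaf1 (9.07), Mlkl (6.44) and Casp9 (5.63) closed the order in iCarP+/Light+.

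**Figure D3:**
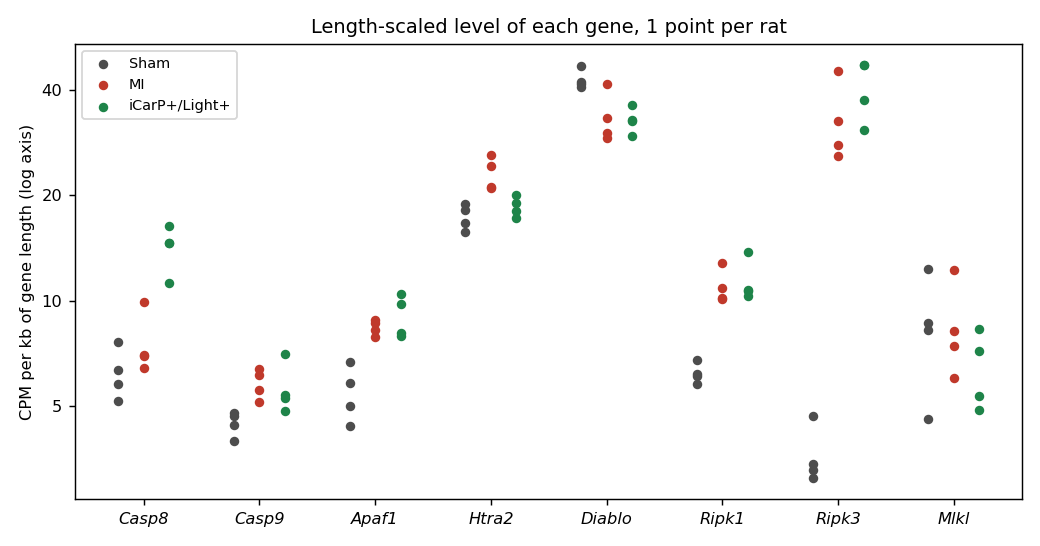
CPM per kb of gene length (vertical log axis) of the 8 genes, 1 point per rat, colored by group. Ripk3 was the lowest gene on average in Sham (3.62 CPM per kb) and the highest in iCarP+/Light+ (40.7 CPM per kb).

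Ratios of read counts between functionally linked genes were then compared within each rat, since a ratio does not depend on how libraries are scaled. Each group pair was tested by an exact two-sided permutation test of the log2 ratio, with adjustment over 15 comparisons (5 ratios and 3 pairs of groups), and none passed 0.05 after it: where 4 rats do not overlap with 4 others the exact p is 0.0286 and the adjusted p 0.0714. The number of Ripk3 reads per Ripk1 read was 0.252, 0.245, 0.203 and 0.341 in the Sham rats. It was 1.13, 1.13, 1.97 and 1.13 in the MI rats and 1.32, 1.94, 1.55 and 1.52 in the iCarP+/Light+ rats. Infarcted rats thus had more Ripk3 than Ripk1 reads and Sham rats fewer, a log2 difference of 2.34 between MI and Sham (exact p = 0.0286) and of 0.27 between iCarP+/Light+ and MI (exact p = 0.314). Leaving out 1 rat gave 0.17 to 0.47 for iCarP+/Light+ against MI, highest without MI rat 4.

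The number of Mlkl reads per Casp8 read was 2.03, 1.38, 2.33 and 2.51 in the Sham rats and 1.66, 1.82, 1.92 and 1.46 in the MI rats. In the iCarP+/Light+ rats it was 0.744, 0.886, 0.521 and 0.688. Every iCarP+/Light+ rat had fewer Mlkl than Casp8 reads and every other rat had more. The log2 difference was -1.29 between iCarP+/Light+ and MI and -1.53 between iCarP+/Light+ and Sham, each with an exact p of 0.0286, while MI and Sham overlapped (-0.24, exact p = 0.286). Leaving out 1 rat gave -0.42 to -0.13 for MI against Sham, lowest without Sham rat 2.

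Cflar encodes cFLIP, a caspase-8 homolog without protease activity that pairs with caspase-8. The number of Cflar reads per Casp8 read ranged from 2.55 to 3.41 for Sham, from 1.28 to 2.47 for MI and from 3.39 to 4.90 for iCarP+/Light+. MI lay below both other groups without overlap. The log2 difference was -0.62 between MI and Sham and 1.12 between iCarP+/Light+ and MI (exact p = 0.0286 each), and 0.50 between iCarP+/Light+ and Sham, which overlapped (exact p = 0.0571). Reads of Apaf1 per Casp9 read ranged from 1.96 to 2.89, 2.52 to 3.14 and 2.89 to 3.65 in Sham, MI and iCarP+/Light+, and those of Diablo per Xiap read from 1.41 to 1.63, 1.02 to 3.39 and 0.845 to 1.50. These ranges overlapped in all 3 pairs of groups, with exact p from 0.0571 to 0.943.

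**Figure D4:**
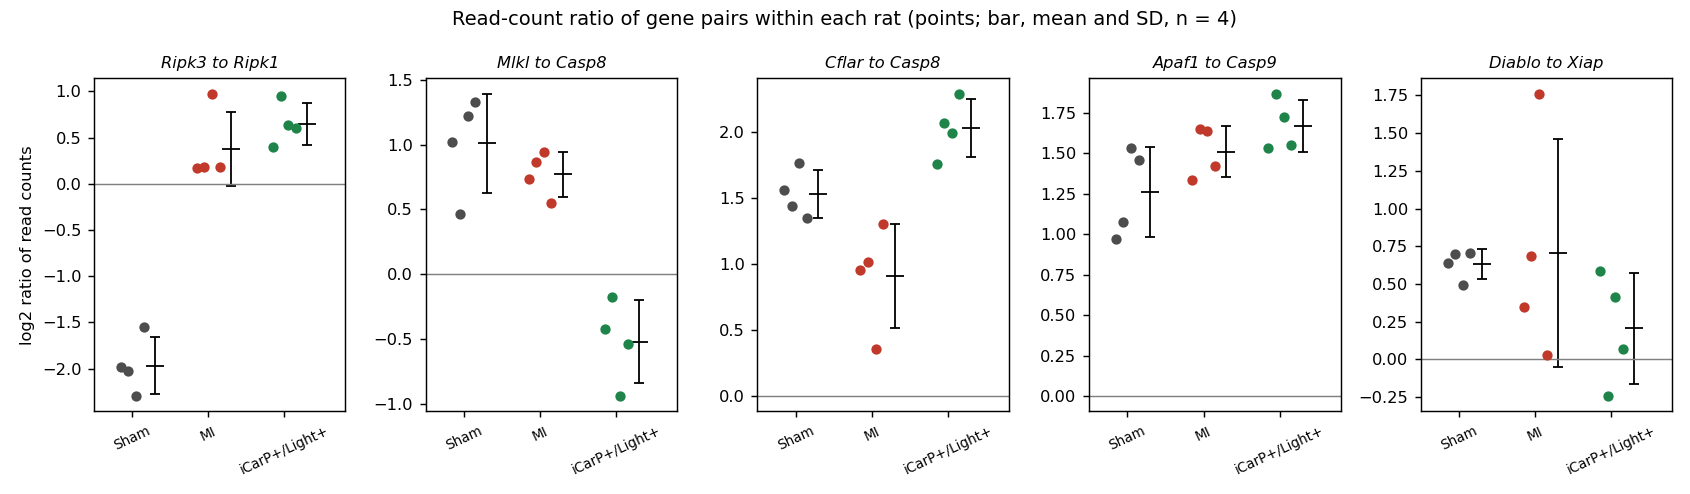
Log2 ratio of read counts of 5 gene pairs in each rat (vertical axes, points), with the mean and SD of 4 rats per group, where 0 means equal reads. Mlkl to Casp8 was below 0 in the 4 iCarP+/Light+ rats and above 0 in the other 8, and Ripk3 to Ripk1 was below 0 in the 4 Sham rats only.

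The other genes of these pathways were taken from 3 lists with 63 symbols, of which 59 matched and could be tested. Of the 26 tested genes of the death receptor complex, 8 were higher and 7 lower in MI than in Sham (edgeR adjusted p below 0.05), with a median log2 fold change of 0.30 against -0.060 for all genes. Between iCarP+/Light+ and MI 11 were higher and 1 lower, with a median of 0.27 against 0.013. Genes of the mitochondrial route and the executioners gave 1 higher and 7 lower of 14 in MI against Sham (median -0.48), and edgeR called 0 of 14 between iCarP+/Light+ and MI (median -0.10). Of the 19 regulators of necroptosis 6 were higher and 4 lower in MI than in Sham (median 0.16), and 7 were higher and 0 lower in iCarP+/Light+ than in MI (median 0.29). At an unadjusted edgeR p below 0.05 the latter comparison had 0 higher genes and 1 lower gene (Casp6, named after its value was seen) in the mitochondrial list and 2 lower genes among the regulators of necroptosis. DESeq2's adjusted p called 1 of 14 lower in the mitochondrial list and 2 of 19 lower among the regulators, and limma-voom's called 0 lower in both. Together 33 of the 59 genes were called in MI against Sham and 19 in iCarP+/Light+ against MI, where 63.8% and 13.6% of all genes tested were called.

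At the death receptor complex, Tnfrsf1b, the gene of TNF receptor 2, was 29.8 ± 7.89 CPM for Sham, 92.8 ± 13.1 for MI and 779 ± 290 for iCarP+/Light+ (SD, n = 4). It rose by a log2 fold change of 1.64 from Sham to MI (edgeR adjusted p = 1.99e-04) and of 3.07 from MI to iCarP+/Light+ (edgeR adjusted p = 2.18e-05). Cflar was 36.5 ± 5.37, 28.5 ± 2.70 and 121 ± 34.8 CPM in the 3 groups and was 2.08 higher on the log2 scale in iCarP+/Light+ than in MI (edgeR adjusted p = 2.01e-05). Its change in MI against Sham was -0.35 (edgeR adjusted p = 0.119), or 0.23 with total counts alone, and without iCarP+/Light+ rat 1 it was called at -0.35 (edgeR adjusted p = 0.0437). Birc3, the gene of the ubiquitin ligase cIAP2, and Tnfaip3, the gene of the ubiquitin-editing enzyme A20, act on RIPK1 at this complex. Birc3 was 11.6 ± 3.69, 17.2 ± 4.32 and 187 ± 55.8 CPM and Tnfaip3 11.3 ± 1.83, 15.5 ± 4.50 and 182 ± 64.4 CPM in Sham, MI and iCarP+/Light+. From MI to iCarP+/Light+ they rose by 3.44 (edgeR adjusted p = 7.48e-06) and 3.55 (edgeR adjusted p = 4.93e-06) on the log2 scale. These genes rose in the same comparison as Casp8, in which 11 of 19 leukocyte markers were also called higher and 1 lower, with a median log2 fold change of 0.91.

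Fadd and Tradd, the adaptors that join receptors to caspase-8 and RIPK1, rose in MI against Sham by 0.50 (edgeR adjusted p = 0.00873) and 1.28 (edgeR adjusted p = 3.25e-05) on the log2 scale. Fadd was 18.9, 26.6 and 24.4 CPM and Tradd 11.0, 26.8 and 21.1 CPM on average in Sham, MI and iCarP+/Light+, and edgeR called neither between the infarcted groups. With total counts alone Tradd was called lower in iCarP+/Light+ than in MI (-0.61, edgeR adjusted p = 0.0236), where the value with TMM scaling was -0.34. Otulin, which removes linear ubiquitin, rose from 8.15 to 19.8 CPM in MI and was 12.7 CPM in iCarP+/Light+. It was called lower in iCarP+/Light+ than in MI, by a log2 fold change of -0.64 (edgeR adjusted p = 0.0418), with overlap between the groups, and the call was lost in 8 of the 12 fits that leave out 1 rat, with values of -0.68 to -0.52 in those 8. Mapkapk2, the gene of the kinase MK2 that phosphorylates RIPK1, was 572, 292 and 543 CPM, lower in MI than in Sham (-0.97, edgeR adjusted p = 3.62e-05) and higher in iCarP+/Light+ than in MI (0.89, edgeR adjusted p = 6.15e-04). The ligand gene Tnfsf10 (TRAIL) was 222 ± 111 CPM for Sham, 11.7 ± 2.29 for MI and 11.8 ± 7.92 for iCarP+/Light+, a log2 fold change of -4.25 in MI against Sham (edgeR adjusted p = 1.11e-05). Tnf averaged 0.0374 and 0.0494 CPM in Sham and MI and 1.27 ± 0.464 CPM in iCarP+/Light+, with some Sham and MI rats at 0 reads. Its fitted log2 fold change from MI to iCarP+/Light+ was 4.42 (edgeR adjusted p = 9.74e-04) and ranged from 4.17 to 4.81 over the 9 other settings that kept the gene.

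In the mitochondrial route, Cycs, the gene of cytochrome c, fell from 755 ± 57.5 CPM in Sham to 154 ± 40.6 in MI and was 157 ± 44.4 CPM in iCarP+/Light+. Its log2 fold change in MI against Sham was -2.29 (edgeR adjusted p = 1.69e-06). Endog, which encodes a mitochondrial nuclease, fell from 60.4 to 9.43 CPM (-2.68, edgeR adjusted p = 1.19e-07) and was 8.67 CPM in iCarP+/Light+. The cardiomyocyte markers fell in the same comparison, with a median log2 fold change of -3.21. Birc5, the gene of survivin, rose from 2.60 to 9.27 CPM in MI (1.83, edgeR adjusted p = 9.48e-04) and was 6.51 CPM in iCarP+/Light+. Xiap was 35.7, 27.6 and 37.3 CPM and edgeR called it in neither comparison, though without MI rat 5 it was called lower in MI than in Sham (-0.54, edgeR adjusted p = 0.0438).

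Among the regulators of necroptosis, Tlr4, a receptor that can feed into RIPK3, rose from 12.7 to 23.1 CPM in MI (0.86, edgeR adjusted p = 3.35e-04) and to 37.1 CPM in iCarP+/Light+ (0.68 over MI, edgeR adjusted p = 0.00909). The latter call was lost without iCarP+/Light+ rat 5 (0.49, edgeR adjusted p = 0.0681) and with total counts alone (0.41, edgeR adjusted p = 0.05005). Tlr3 fell from 35.1 to 14.6 CPM in MI (-1.26, edgeR adjusted p = 6.75e-04) and was 8.31 CPM in iCarP+/Light+ (-0.81 against MI, edgeR adjusted p = 0.0526). The iCarP+/Light+ rats lay below the MI rats without overlap, and this difference was called under 7 of the 10 other settings, with DESeq2 adjusted p = 0.0115, and in 2 of the 12 fits that leave out 1 rat. Zbp1, a nucleic acid sensor that binds RIPK3, spread from 0.683 to 12.2 CPM for Sham, from 2.98 to 22.6 for MI and from 2.03 to 7.31 for iCarP+/Light+ and was called in neither comparison. Pgam5, a mitochondrial phosphatase, rose from 31.0 to 58.2 CPM (0.91, edgeR adjusted p = 6.14e-05), and Ppm1b, a phosphatase that acts on RIPK3, fell from 122 to 70.4 CPM (-0.80, edgeR adjusted p = 3.93e-05) in MI. With total counts alone the Ppm1b value was -0.22 and the call was lost (edgeR adjusted p = 0.108).

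The list also held genes whose products act on MLKL at the membrane (Flot1 and Pdcd6ip) and other regulators (Peli1 and Ipmk). Flot1, the gene of flotillin-1, was 101, 97.9 and 243 ± 59.3 CPM and rose in iCarP+/Light+ against MI by 1.31 on the log2 scale (edgeR adjusted p = 1.59e-04). Pdcd6ip, the gene of ALIX, was 124, 220 and 302 ± 39.1 CPM and rose in MI (0.82, edgeR adjusted p = 5.14e-05) and again in iCarP+/Light+ (0.46, edgeR adjusted p = 0.0200), a second call that was lost without MI rat 3, iCarP+/Light+ rat 2 or iCarP+/Light+ rat 5 (adjusted p 0.0556 to 0.132). It was also lost with only the groups compared (0.42, edgeR adjusted p = 0.0852), with the replicate block (0.44, edgeR adjusted p = 0.1002) and with total counts alone (0.18, edgeR adjusted p = 0.264). Peli1, a ubiquitin ligase that acts on RIPK3, was 25.2, 23.6 and 46.4 ± 9.88 CPM and rose in iCarP+/Light+ by 0.97 (edgeR adjusted p = 9.15e-04). Ipmk, an inositol phosphate kinase, was 27.3, 37.4 and 61.6 ± 13.8 CPM and rose by 0.45 in MI (edgeR adjusted p = 0.0145) and by 0.72 in iCarP+/Light+ over MI (edgeR adjusted p = 0.00421).

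**Figure D5:**
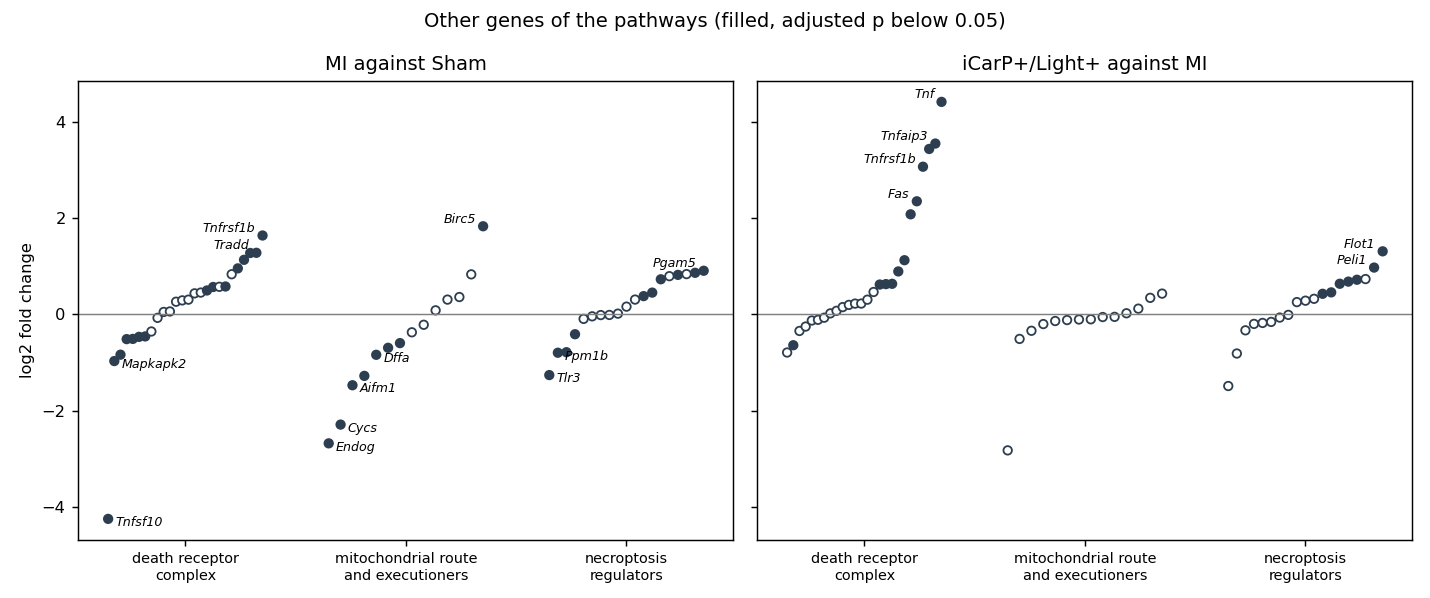
Log2 fold change (vertical axis) of the 59 other pathway genes, sorted within each of 3 lists, in MI against Sham and in iCarP+/Light+ against MI, where filled points passed an edgeR adjusted p of 0.05 and names mark called genes with large changes. In the mitochondrial list 8 of 14 genes were called in MI against Sham and 0 of 14 in iCarP+/Light+ against MI, beside 63.8% and 13.6% of all genes tested.

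Across the 12 rats, the genes most like each of the 8 in log2 CPM were taken from 13652 protein-coding genes, as a description that also reflects the differences between groups. For Ripk3 these were Cd37 and Btk (Pearson r 0.996 for each), and for Ripk1 Tbc1d1 (0.991) and Galc (0.990). Relb (0.976) and Marcks (0.974) were closest to Casp8. Mlkl was closest to Ifi47 (0.953) and AABR07035832.1 (0.929). Htra2 had Chmp6 (0.971) and Akr1a1 (0.969), Apaf1 had Cd80 (0.962) and Tbc1d9 (0.959), Diablo had Churc1 (0.951) and Kdelr1 (0.946), and Casp9 had Leng9 (0.931) and Cmklr1 (0.924).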

How the data were processed

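LV tissue of 12 rats, 4 per group, was sequenced after library preparation with a NEBNext Ultra kit. The authors deposited raw read counts per gene, 1 column per rat, and 0 sample columns were left unmatched to a sample. HISAT2, featureCounts and build rn6 are named in the submitters' processing notes, and versions, annotation release and strand setting are not given in the sources used here. Without the strand setting, reads from overlapping genes on opposite strands may not be separable. Counting error sets the lower limit of precision at 82 to 1626 reads per gene and rat.

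The analysis used edgeR 4.0.16 under R 4.3.3, with filterByExpr (minimum count 10) and TMM factors of 0.784 to 0.856 for Sham, 1.15 to 1.26 for MI and 0.960 to 1.05 for iCarP+/Light+. Its quasi-likelihood fit covered the 12 rats, with a mean for each group. P-values were adjusted by Benjamini-Hochberg over 15101 genes with a threshold of 0.05, and SE values were taken from the F statistics. Two-sided exact permutation tests used log2 CPM (prior count 2) or log2 count ratios (0.5 added to each count) over 70 arrangements. Within a group, no pair of rats differed as little as copies of the same library would (chi-square per gene 14 to 111 over 18 pairs).

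The alternatives were DESeq2's size factors in edgeR, total counts alone, DESeq2 1.42.0, limma-voom (limma 3.58.1), no filter, a minimum of 10 counts in each rat, protein-coding genes alone, no mitochondrial genes, the compared groups alone, a replicate block, and each rat left out. Methods were tested on simulated data. The 8 genes and all lists were chosen with earlier results of these data known. Named from the lists were Cflar, Xiap, Fadd, Zbp1, Cycs and, in each list and in both comparisons with MI, the 3 highest and 2 lowest changes among called genes without overlap. Of 3 skeletal muscle markers tested, 0 were called in either comparison with MI. Promoters came from RefSeq (GRCr8), a build other than that of the counts.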

Additional observations from a re-analysis of the deposited data

Results flagged for a closer look

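In 108 groups of 4 rats, over the 8 genes, the ratios and the named pathway genes, 5 rats stood apart from the other 3 of their group by a Dixon ratio (the gap to the nearest rat over the range) above the 95% critical value, where chance alone gives about 5.4. Ripk1 in iCarP+/Light+ rat 5 was 62.3 CPM against 46.8 to 48.7 in the other 3 (ratio 0.858). The number of Ripk3 reads per Ripk1 read in MI rat 4 was 1.97 against 1.13 in each of the others (ratio 0.988), and that rat also had the highest Casp8, Apaf1, Htra2, Diablo, Ripk3 and Mlkl levels of the MI group. Mapkapk2 in Sham rat 1 was 604 CPM against 561 to 562 (ratio 0.970). Cflar in Sham rat 2 was 28.5 CPM against 38.0 to 39.9 (ratio 0.854). Tradd in iCarP+/Light+ rat 1 was 18.6 CPM against 21.6 to 22.1 (ratio 0.866).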

How the results depend on the processing

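Of 240 values for the 8 genes under 10 other settings, 214 were unchanged in sign and in call, 10 lost and 7 gained a call and 9 changed sign; of 288 values with 1 rat left out the numbers were 264, 16, 0 and 8. Casp8 in iCarP+/Light+ against MI (0.64 to 0.92, and 0.76 to 1.06 with 1 rat left out) and Ripk3 in MI against Sham (3.16 to 3.76, and 2.999 to 3.33 with 1 rat left out) were called in all of these. These genes had 82 reads or more in every rat. Tnf had few reads in Sham and MI, and its direction between them turned with the settings.

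In iCarP+/Light+ against MI, 2 of the 8 genes were called in place of 1 under DESeq2's size factors, total counts alone, DESeq2, a minimum of 10 counts per rat and the exclusion of mitochondrial genes, the added gene being Htra2 (-0.58 to -0.36). Over all genes, 3926 were called with total counts alone and 1298 with the replicate block, in place of 2051. Total counts alone gave a median over all genes of 0.52 in MI against Sham, where TMM scaling gave -0.060. In iCarP+/Light+ against MI these medians were -0.25 and 0.013, and in iCarP+/Light+ against Sham 0.33 and 0.017. In the same order of comparisons, the share of calls that were higher went from 47.3% to 73.5%, from 85.2% to 30.7% and from 50.3% to 64.7%. In iCarP+/Light+ against MI that share was 70.8% under DESeq2 and 72.4% with at least 10 counts. The cause of these shifts was not tested.

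No value that changed sign was called under the setting that turned it. In MI against Sham, total counts alone gave 0.22 for Diablo, 0.22 for Xiap and 0.23 for Cflar, limma-voom gave -0.16 for Tnf, and Mlkl was -0.0094 with protein-coding genes and -0.061 with the replicate block. In iCarP+/Light+ against MI, Ripk1 was -0.0018 under DESeq2's size factors, -0.0025 under DESeq2, -0.0098 with at least 10 counts and -0.23 with total counts alone, Apaf1 was -0.16 with total counts alone, and Diablo was 8.25e-05 with the replicate block. With 1 rat left out, the ranges that crossed 0 were -0.23 to 0.24 for Mlkl (negative without MI rat 4 or without Sham rat 1 or 2) and -0.76 to 0.92 for Tnf in MI against Sham, and in iCarP+/Light+ against MI -0.11 to 0.082 for Diablo, -0.25 to 0.020 for Casp9, -0.043 to 0.17 for Apaf1 and -0.13 to 0.13 for Ripk1.

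The ratio of Apaf1 to Casp9 in iCarP+/Light+ against Sham was 0.41 with 2 in place of 0.5 added to each count, with an exact p of 0.0286 in place of 0.0571. With 1 rat left out, only the value of each ratio was compared, without a test.

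Equal rat numbers in different groups name different animals. The deviations of such rats from the group means had correlations from -0.150 to 0.065 in 9 pairs, 0 of 12 rats correlated best with their own number, and the numbers were not taken as pairs. With the replicate block 6, 1 and 5 of the 8 genes were called in MI against Sham, iCarP+/Light+ against MI and iCarP+/Light+ against Sham, the call lost being Casp9 against Sham (0.32, edgeR adjusted p = 0.0682).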

Other observations

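After each group's mean was taken off, the 8 genes did not vary together evenly among the 12 rats. As a description over 12 deviations, which share library scaling and are not independent of it, Casp8 varied most closely with Ripk3 (Pearson r 0.894) and Mlkl (0.807), and Ripk3 with Mlkl (0.731). MI rat 4 had the highest level of its group for each of these 3 genes, and without it the values were 0.826, 0.742 and 0.630 over 11 rats, the lowest that leaving out any 1 rat gave (chosen after seeing the data). Next came Casp8 with Diablo at 0.703 (0.428 without MI rat 4), then Apaf1 with Ripk3 and with Mlkl at 0.606 and 0.604. Ripk1 varied little with its partner Ripk3 (0.178) or with Mlkl (0.060), and Casp9 little with Casp8 (0.138). Casp9 and Apaf1, the partners in the apoptosome, had 0.374. With 1 rat left out these ranged from -0.054 to 0.443 for Ripk1 with Ripk3, from -0.075 to 0.216 for Ripk1 with Mlkl, from -0.18 to 0.287 for Casp9 with Casp8 and from 0.084 to 0.497 for Casp9 with Apaf1, each lowest without iCarP+/Light+ rat 5.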
